A study of Mus musculus with 24 samples.

Results

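The genes described here encode the G proteins that sit below cell surface receptors, the enzymes that make, break and read cyclic AMP (cAMP), and the regulators of G protein signalling (RGS) that end a G protein's signal. They were chosen by gene symbol alone, as the rows of the table whose symbol is that of a G protein alpha, beta or gamma subunit, an adenylyl cyclase, a phosphodiesterase, a subunit of protein kinase A (PKA), a Rap guanine nucleotide exchange factor or an RGS protein. The choice took 78 rows with 77 symbols out of 14027 genes, because Pde4d stands in the table as 2 entries. The gene annotation of the mouse holds 99 protein-coding symbols of this kind, and the other 22 were not analysed here.

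RNA was measured in alpha cells, the glucagon-secreting cells of the mouse pancreatic islet, and in beta cells, its insulin-secreting cells. Both came from a strain that the labels give only as a triple reporter mouse, and neither the reporters' promoters nor the age of the animals is stated. Islets were isolated at ZT0, ZT4, ZT8, ZT12, ZT16 and ZT20, where the zeitgeber time (ZT) counts hours of the lighting cycle. Each cell type had 2 libraries per time, giving 12 alpha and 12 beta libraries, and no treatment or genotype differed between them.

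A hormone that binds a Gs-coupled receptor makes adenylyl cyclase produce cAMP, and Gi proteins oppose this. Cyclic AMP releases the catalytic subunits of PKA from their regulatory subunits and activates the Epac exchange factors for the small G protein Rap, and phosphodiesterases end the signal by hydrolysing cyclic nucleotides. RGS proteins speed up the hydrolysis of GTP on alpha subunits. In beta cells this pathway carries the effect of incretin hormones on insulin secretion, and in alpha cells it carries the effect of adrenaline on glucagon secretion.

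Between the cell types the members differed most in which adenylyl cyclase, phosphodiesterase, gamma subunit and RGS gene was abundant. Promoters are shown for a cyclase and a Gi alpha subunit that were higher in alpha cells, for a phosphodiesterase that was higher in beta cells, and for the phosphodiesterase with the widest daily rhythm, which has 2 RefSeq starts. Each runs 5′ to 3′ on the gene's strand, from 250 bases before to 50 bases after the start, in the mouse build GRCm38.p6 as given by RefSeq. Capitals mark the E-box CACGTG, the sequence that clock transcription factors bind.
Adcy1 (chr11:7063183-7063482, plus strand): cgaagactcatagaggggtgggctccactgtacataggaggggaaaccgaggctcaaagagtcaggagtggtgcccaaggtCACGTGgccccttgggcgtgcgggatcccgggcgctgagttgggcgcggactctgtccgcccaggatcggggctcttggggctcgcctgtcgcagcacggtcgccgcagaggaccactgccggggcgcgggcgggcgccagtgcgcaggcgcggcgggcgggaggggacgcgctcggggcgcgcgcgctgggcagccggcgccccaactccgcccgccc
Gnai1 (chr5:18360364-18360663, minus strand): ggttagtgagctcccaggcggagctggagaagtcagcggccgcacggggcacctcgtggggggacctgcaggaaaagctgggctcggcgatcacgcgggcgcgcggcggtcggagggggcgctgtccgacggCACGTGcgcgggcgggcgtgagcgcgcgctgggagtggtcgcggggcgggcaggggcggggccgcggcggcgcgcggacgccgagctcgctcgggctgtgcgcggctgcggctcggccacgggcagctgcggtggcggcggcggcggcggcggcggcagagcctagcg
Pde5a (chr3:122728908-122729207, plus strand): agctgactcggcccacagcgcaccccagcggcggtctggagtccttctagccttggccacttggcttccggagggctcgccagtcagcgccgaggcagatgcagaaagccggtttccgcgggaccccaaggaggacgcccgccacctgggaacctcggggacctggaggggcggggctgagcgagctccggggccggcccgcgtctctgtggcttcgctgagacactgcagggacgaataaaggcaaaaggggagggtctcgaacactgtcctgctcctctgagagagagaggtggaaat
Pde10a, upstream start (chr17:8801495-8801794, plus strand): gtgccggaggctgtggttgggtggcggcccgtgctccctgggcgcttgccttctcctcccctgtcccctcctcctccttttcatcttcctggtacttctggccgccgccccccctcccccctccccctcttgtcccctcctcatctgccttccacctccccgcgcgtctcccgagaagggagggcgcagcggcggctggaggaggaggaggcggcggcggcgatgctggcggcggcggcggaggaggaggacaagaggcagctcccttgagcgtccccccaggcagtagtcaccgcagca
Pde10a, downstream start (chr17:8849735-8850034, plus strand): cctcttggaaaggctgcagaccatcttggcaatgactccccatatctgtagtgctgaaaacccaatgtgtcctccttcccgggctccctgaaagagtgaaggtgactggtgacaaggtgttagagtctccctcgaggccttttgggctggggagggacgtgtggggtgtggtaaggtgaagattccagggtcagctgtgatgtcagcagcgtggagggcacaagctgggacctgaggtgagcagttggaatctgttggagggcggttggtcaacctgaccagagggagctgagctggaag

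The E-box began 169 bases before the start of Adcy1 and 118 bases before that of Gnai1, and the letters CACGTG were not in the windows of Pde5a and Pde10a. Of the 63 members with a RefSeq promoter 11 held this palindrome (17.5%), against 2187 of 27025 genes (8.09%). These 27025 are all genes with a RefSeq promoter, here and in the counts below, and not only the 14027 measured here. The 2 sets are thus unlike, and the shares cannot be read as an excess in the members. A palindrome reads the same on both strands. A gene was counted if any of its promoters held the letters, so more promoters gave more chances. Counted by promoter, 11 of 112 member promoters held it, against 2349 of 32851 promoters of all genes. The cAMP response element TGACGTCA, also a palindrome, stood in the promoter of 1 member, Prkar1a (1.59%), against 549 of all genes (2.03%). A match to these letters describes the sequence and shows no binding.

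The libraries held between 4944982 reads (alpha ZT12 replicate 2) and 12364190 reads (alpha ZT8 replicate 2), and a member had a median of 253 reads per library. Of the 1872 member values 31 were at 0. Members took 0.826% to 0.956% of the reads in alpha libraries and 0.631% to 0.739% in beta libraries. The alpha subunit Gnas alone had 38389 of the 12219276 reads of alpha ZT0 replicate 1, against 7880 of the 10474773 reads of beta ZT0 replicate 1. Levels are given as RPKM, in which reads are divided by the length of the gene and the size of the library. By RPKM the members summed to 1420 ± 76.3 in alpha cells, against 1480 ± 57.4 in beta cells (SD over the libraries of each), so the read shares do not show a higher summed level in alpha cells. The cell types carried their defining markers: the summed RPKM of 6 alpha markers ranged over 101000 to 177000 in alpha libraries and 561 to 2470 in beta libraries, and that of 7 beta markers over 414 to 5210 in alpha libraries and 189000 to 351000 in beta libraries. Markers of other cells were also higher in alpha libraries: both pancreatic polypeptide cell markers (median sum 39700 RPKM in alpha libraries, against 483 RPKM in beta libraries), all 3 delta cell markers (3680 RPKM, against 1140 RPKM in beta libraries), both measured duct markers (45.1 RPKM, against 8.2 RPKM in beta libraries) and both measured glial markers (1.8 RPKM, against 0.485 RPKM in beta libraries). Their part in the differences of the members was not tested. The 12 immediate early genes, which cells switch on within minutes of stimulation, summed to 345 to 2500 RPKM in alpha libraries and 174 to 962 RPKM in beta libraries, and differed widely between replicates at ZT0, ZT4 and ZT8.

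Alpha cells carried more RNA than beta cells for the stimulatory alpha subunit Gnas, for 6 of 7 adenylyl cyclases and for Rgs4, and less for the phosphodiesterase Pde5a, the gamma subunit Gng12 and Rgs16. A gene was called at an adjusted p under 0.05 with a difference of at least 2-fold. By this rule 37 of 78 members differed (47.4%), beside 20.7% of all genes tested. Of these 25 were higher in alpha cells (32.1%, beside 11.2% of all genes) and 12 were higher in beta cells (15.4%, beside 9.54%). The median log2 difference, alpha minus beta, was 0.14 over the members and 0.01 over all genes. Another 29 members passed the adjusted p with a smaller difference, and 12 did not pass it. Without the fold threshold 66 of 78 members (84.6%) passed, beside 74.9% of all genes.

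For 35 members (44.9%) the range of alpha libraries lay wholly apart from that of beta libraries, beside 26% of all genes. All 37 called members had 1 direction at all 6 times, and for 29 of them the libraries did not overlap. Both counts come from the libraries that made the calls, and the shares among all called genes were not counted. They therefore add no separate support and cannot be read as a trait of the members. Of the called members 14 of the 25 higher in alpha cells reached a mean of 1 RPKM there, and 9 of the 12 higher in beta cells reached it in beta cells. Each library is RNA from many cells, so fewer cells that express a gene cannot be told apart from less RNA per cell.

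**Figure D1:**
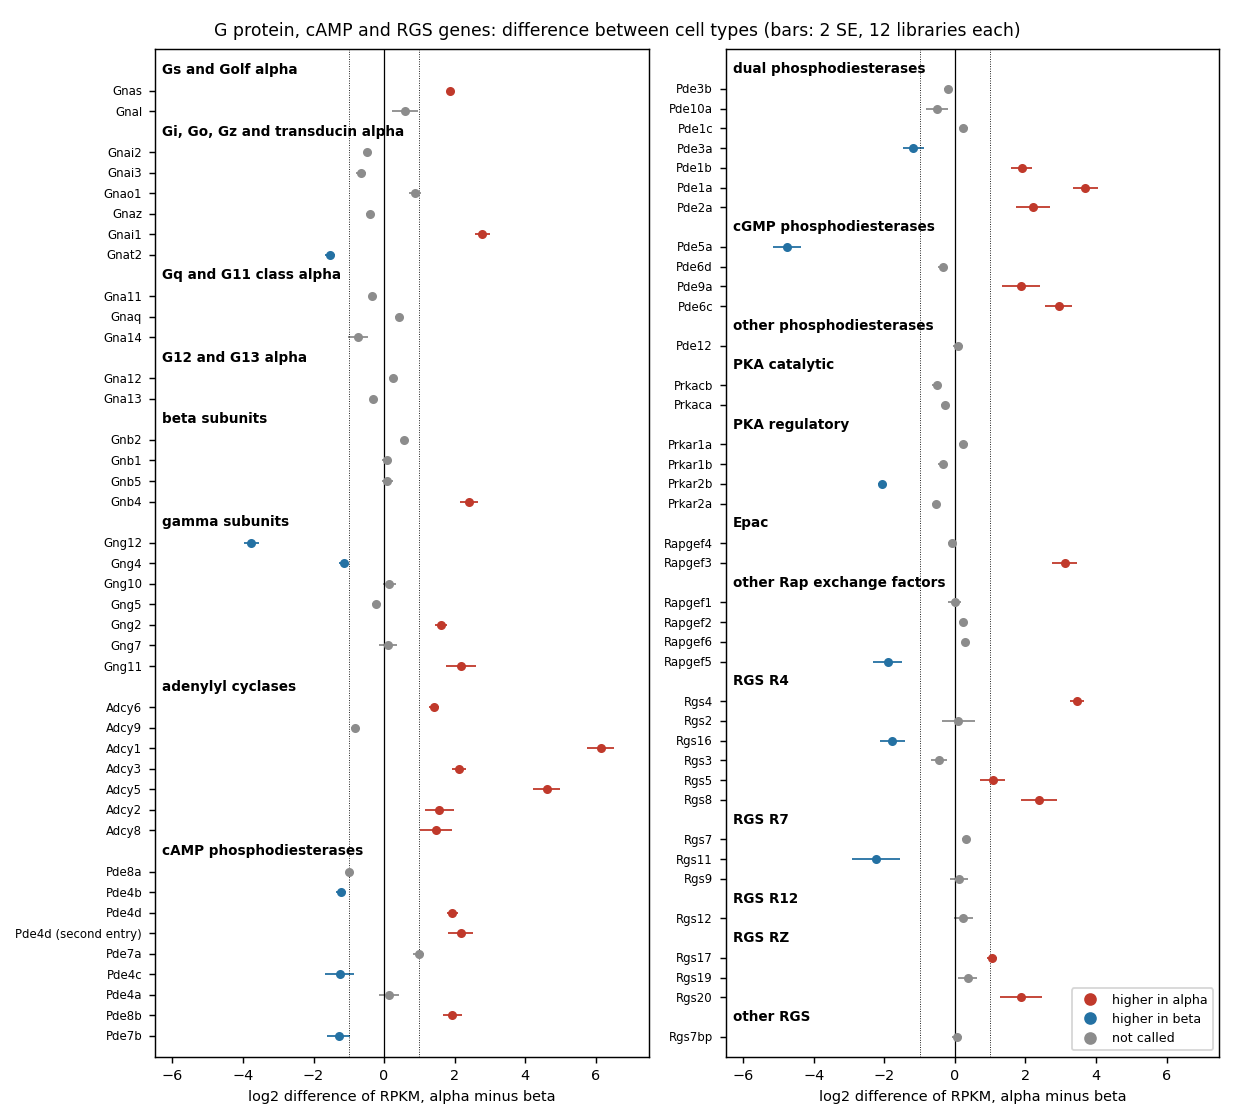
The log2 difference in RPKM between alpha and beta cells (horizontal axis, alpha minus beta) for each of the 78 members, grouped by role, with bars of 2 standard errors (SE) from the fit over 12 libraries per cell type. Red points are the 25 members called higher in alpha cells, blue points the 12 called higher in beta cells, and dotted lines mark a 2-fold difference.

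Among the alpha subunits, Gnas, which couples receptors to adenylyl cyclase, showed the lowest adjusted p of the members. Its levels, here and below as the lowest, the median and the highest of 12 libraries, were 226, 244 and 263 RPKM in alpha cells, against 58.9, 68.6 and 71.4 RPKM in beta cells. Its level was 3.63-fold higher in alpha cells (log2 difference 1.86 ± 0.04 SE, adjusted p = 2.7e-20), and every alpha library lay above every beta library. The Gnas locus on chromosome 2 (174284320 to 174346744 in GRCm38) gives rise to several transcripts that the gene's single row does not separate, and it shares 1469 exon bases with Gm20721 on the opposite strand, whose reads may be counted with it because the strand setting of the counting is not given. Gnal, its relative from the olfactory system, was low in both, at 0.188, 0.304 and 0.439 RPKM in alpha cells, against 0.092, 0.186 and 0.328 RPKM in beta cells, with log2 difference 0.60 ± 0.19 SE, adjusted p = 0.0063 and a difference under 2-fold.

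The inhibitory alpha subunits, which restrain adenylyl cyclase, split by member. Gnai1 stood at 36.9, 43.1 and 58.1 RPKM in alpha cells, against 3.94, 6.5 and 10.6 RPKM in beta cells, 6.93-fold higher in alpha cells (log2 difference 2.79 ± 0.11 SE, adjusted p = 2.3e-16). Gnai2, the most abundant of them, stood at 88.5, 98.4 and 125 RPKM in alpha cells, against 123, 140.0 and 174 RPKM in beta cells, and Gnai3 at 25.4, 31.3 and 37 RPKM in alpha cells, against 39.3, 49.3 and 64.9 RPKM in beta cells. Both passed the test with less than 2-fold, lower in alpha cells, with log2 differences of -0.47 ± 0.05 SE and -0.65 ± 0.07 SE. Gnao1, the alpha subunit best known from neurons, lay at 35.4, 46.9 and 65.1 RPKM in alpha cells, against 18.6, 23.4 and 38.1 RPKM in beta cells, 1.85-fold higher in alpha cells (log2 difference 0.88 ± 0.09 SE, adjusted p = 3.6e-09). Gnaz, insensitive to pertussis toxin, was 1.33-fold lower in alpha cells, at a mean of 27.8 ± 2.94 RPKM in alpha cells, against 37.1 ± 4.1 in beta cells (SD, n = 12 each). As a share of the summed RPKM of these 5 genes, Gnai1 made up 18.2% in alpha cells and 2.62% in beta cells, while Gnai2 made up 39.7% in alpha cells and 53.9% in beta cells. Gnat2, the transducin of cone photoreceptors, was 2.92-fold lower in alpha cells (log2 difference -1.54 ± 0.07 SE, adjusted p = 6.3e-15), at 2.67, 3.35 and 3.83 RPKM in alpha cells, against 7.67, 10.3 and 12.6 RPKM in beta cells, without overlap.

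None of the alpha subunits of the Gq and G12 classes reached a 2-fold difference. Gnaq, which activates phospholipase C beta, lay at 17.5, 20.3 and 24.8 RPKM in alpha cells, against 14.5, 15.4 and 17.5 RPKM in beta cells, and its close relative Gna11 at 21.1, 25.6 and 29.9 RPKM in alpha cells, against 26, 32 and 34.6 RPKM in beta cells. Gna14 of the same class was near its detection limit, at 0.0256, 0.192 and 0.279 RPKM in alpha cells, against 0.16, 0.284 and 0.598 RPKM in beta cells. Gna12 and Gna13, the alpha subunits of the G12 class, had log2 differences of 0.24 ± 0.05 SE and -0.30 ± 0.05 SE. Gna12 ranged over 15.2, 17.7 and 20.5 RPKM in alpha cells, against 13.6, 14.6 and 17.1 RPKM in beta cells. Gna13 ranged over 10.4, 12.8 and 15.2 RPKM in alpha cells, against 13.6, 15.6 and 19 RPKM in beta cells.

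Among the beta subunits, which pair with a gamma subunit, Gnb4 alone was called. It was 5.31-fold higher in alpha cells (log2 difference 2.41 ± 0.12 SE, adjusted p = 3e-14), at 1.4, 2.15 and 3.04 RPKM in alpha cells, against 0.277, 0.391 and 0.508 RPKM in beta cells, and the libraries did not overlap. The abundant Gnb2 lay at 52.7, 57.9 and 63.2 RPKM in alpha cells, against 36.4, 39.8 and 44.3 RPKM in beta cells, 1.48-fold higher in alpha cells. Gnb1 lay at 28.9, 35.9 and 43.8 RPKM in alpha cells, against 29.2, 33.8 and 39.6 RPKM in beta cells, and the interval of its log2 difference ran from -0.04 to 0.19. Gnb5, the partner of the R7 class of RGS proteins, lay at 11.1, 12.3 and 19 RPKM in alpha cells, against 9.89, 12.5 and 15.3 RPKM in beta cells, with an interval from -0.06 to 0.25.

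The gamma subunits, which anchor the dimer to the membrane, differed in which member was abundant. Gng12 had 8.97, 12.3 and 15.2 RPKM in alpha cells, against 116, 158 and 251 RPKM in beta cells, and was 13.6-fold lower in alpha cells (log2 difference -3.76 ± 0.11 SE, adjusted p = 1.6e-18). It made up 16.6% of the summed RPKM of gamma subunits in alpha cells and 65.0% in beta cells. Gng4 was 2.21-fold lower in alpha cells, at 22.6, 28.7 and 34.6 RPKM in alpha cells, against 51.8, 61.4 and 78 RPKM in beta cells (log2 difference -1.14 ± 0.06 SE, adjusted p = 1.5e-13), and lost its 2-fold difference when libraries were scaled by total reads alone (log2 difference -0.96). Gng2 was 3.06-fold higher in alpha cells, at a mean of 7.65 ± 1.35 RPKM in alpha cells, against 2.48 ± 0.518 in beta cells (SD, n = 12 each; log2 difference 1.61 ± 0.09 SE, adjusted p = 1.3e-13).

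Gng11 was also called higher in alpha cells (log2 difference 2.18 ± 0.21 SE, adjusted p = 3.3e-09), at 0.551, 1.13 and 2.33 RPKM in alpha cells, against 0, 0 and 0.368 RPKM in beta cells, and had 139 reads over the alpha libraries and 10 over the beta libraries, 7 of which were at 0. Endothelial cells carry Gng11, and 0 of 3 measured endothelial markers were called between the cell types, with summed levels of 0.412 to 2.12 RPKM in alpha libraries and 0.317 to 1.67 RPKM in beta libraries. Their part in the Gng11 difference was not tested. Gng10, Gng5 and Gng7 did not reach a 2-fold difference. Gng10 lay at 12.3, 18.4 and 28.3 RPKM in alpha cells, against 10.7, 17.2 and 26.3 RPKM in beta cells, and it shares 946 exon bases on its own strand with the gene Gm20503.

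Of the 7 adenylyl cyclases, the enzymes that make cAMP, 6 were called higher in alpha cells, and Adcy9 passed the test in the other direction below 2-fold. Adcy1, stimulated by calcium and calmodulin, showed the widest difference of all members. It lies on chromosome 11 (7063489 to 7178506) and had 2.16, 3.31 and 8.12 RPKM in alpha cells, against 0.00851, 0.0382 and 0.123 RPKM in beta cells, with 306 to 949 reads per alpha library and 1 to 16 reads per beta library. The fit gave 70.6-fold (log2 difference 6.14 ± 0.19 SE, adjusted p = 5e-18). Adcy5, which calcium inhibits, had 1.26, 1.71 and 2.18 RPKM in alpha cells, against 0.0134, 0.0363 and 0.133 RPKM in beta cells, and was 24.4-fold higher in alpha cells (log2 difference 4.61 ± 0.19 SE, adjusted p = 6.8e-16). Every alpha library lay above every beta library for both genes.

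Adcy6, the closest relative of Adcy5, was the most abundant cyclase of alpha cells. It stood at 39.1, 51.4 and 55.4 RPKM in alpha cells, against 13.4, 18.6 and 22.3 RPKM in beta cells, 2.67-fold higher in alpha cells (log2 difference 1.42 ± 0.07 SE, adjusted p = 4e-14). Adcy9, which responds weakly to forskolin, stood at 11.7, 15.1 and 17.9 RPKM in alpha cells, against 21.7, 26.6 and 30.3 RPKM in beta cells, 1.78-fold lower in alpha cells (log2 difference -0.83 ± 0.06 SE, adjusted p = 8.4e-12). The order of these genes by RPKM thus differed between the cell types. Adcy6 made up 66.9% of the summed RPKM of cyclases in alpha cells (58.5% to 70.7% by library) and 39.9% in beta cells (33.6% to 44.6%). Adcy9 made up 20.6% in alpha cells (15.2% to 23.0%) and 58.2% in beta cells (52.9% to 63.2%). These shares did not overlap between cell types in any library.

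Adcy3, the cyclase of olfactory neurons, was 4.36-fold higher in alpha cells (log2 difference 2.12 ± 0.10 SE, adjusted p = 3.8e-15), at 2.05, 2.73 and 3.68 RPKM in alpha cells, against 0.382, 0.572 and 1.18 RPKM in beta cells. It shares 1380 exon bases with Cenpo on the opposite strand. Adcy2 was 2.97-fold and Adcy8, a second calcium-stimulated cyclase, 2.79-fold higher in alpha cells, from 216 and 130 reads over all alpha libraries, against 50 and 26 reads over all beta libraries. Both overlapped between cell types, and neither reached 2-fold on the scale of log2(RPKM + 1). Adcy8 also fell short of it on the scale of log2(RPKM + 0.1). Summed over the 7 genes, cyclases reached 73.6 ± 6.11 RPKM in alpha cells, against 46.2 ± 4.93 RPKM in beta cells (SD, n = 12 each).

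**Figure D2:**
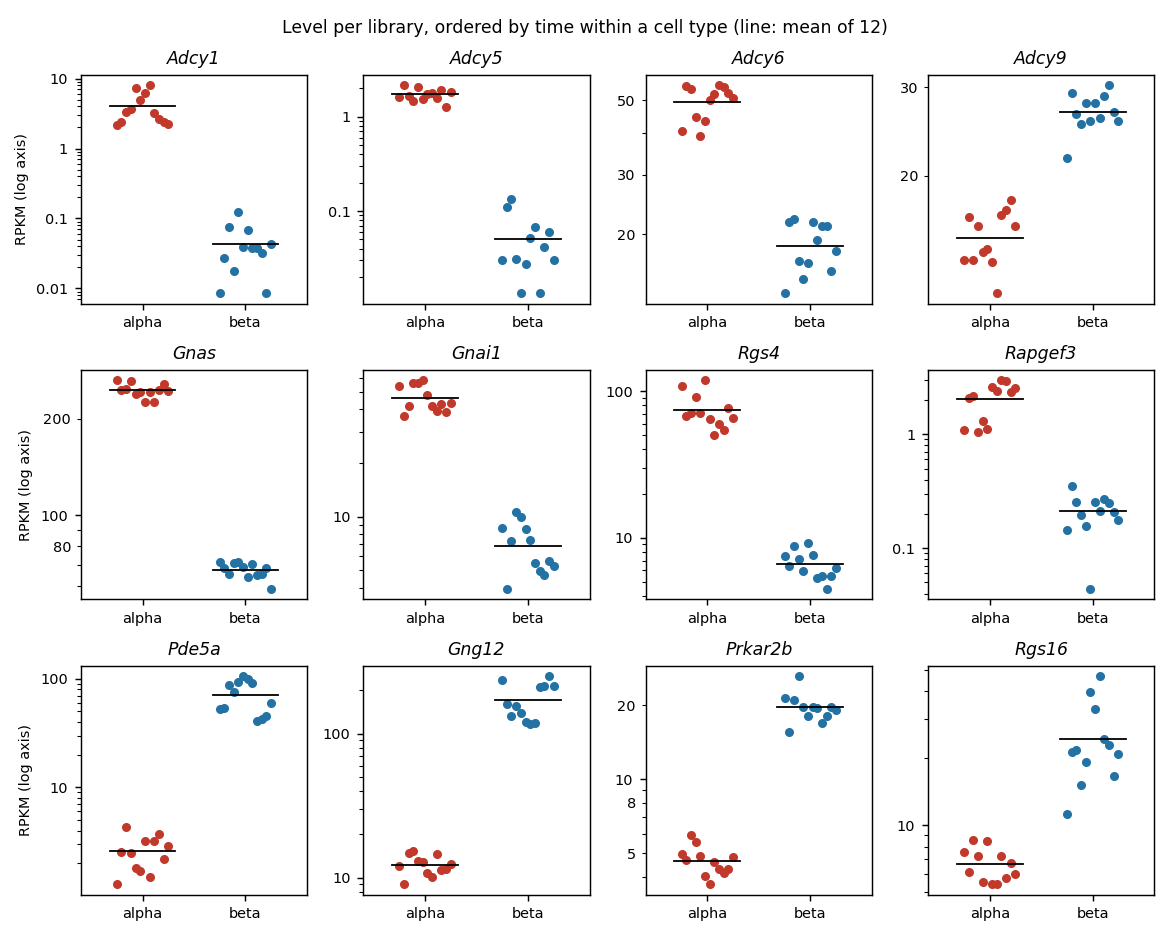
RPKM on a log axis for 12 members in each of the 12 alpha libraries (red, left) and 12 beta libraries (blue, right), ordered by time within a cell type, with the mean as a line. Adcy1, Adcy5, Adcy6, Gnas, Gnai1, Rgs4 and Rapgef3 lie higher in alpha cells and Adcy9, Pde5a, Gng12, Prkar2b and Rgs16 lie lower in alpha cells, without overlap in any of the 12.

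Phosphodiesterases break down cyclic nucleotides, and of the 9 entries specific for cAMP 3 were called in each direction. Pde4d was higher in alpha cells in both entries. The first was at 4.27, 5.24 and 7.71 RPKM in alpha cells, against 1.13, 1.41 and 1.73 RPKM in beta cells (3.83-fold, log2 difference 1.94 ± 0.08 SE, adjusted p = 1.6e-15). The second, whose identifier has no match in the annotation used here, was at 4.35, 5.52 and 8.31 RPKM in alpha cells, against 0.517, 1.2 and 2.07 RPKM in beta cells (4.49-fold, log2 difference 2.17 ± 0.17 SE, adjusted p = 1.5e-10). The entries may share reads and are not separate evidence. Pde8b was 3.85-fold higher in alpha cells, at a mean of 0.709 ± 0.19 RPKM in alpha cells, against 0.163 ± 0.0533 in beta cells (SD, n = 12 each).

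Pde4b was 2.34-fold lower in alpha cells (log2 difference -1.22 ± 0.07 SE, adjusted p = 1.9e-13), at 2.23, 3.15 and 3.44 RPKM in alpha cells, against 6.12, 6.92 and 9.22 RPKM in beta cells. Pde4c was 2.4-fold and Pde7b 2.45-fold lower in alpha cells, both with overlapping libraries. Pde8a and Pde7a lay just short of the 2-fold limit, Pde8a 1.99-fold lower and Pde7a 1.98-fold higher in alpha cells. Pde8a, which has a high affinity for cAMP, ranged over 7.9, 9.22 and 10.8 RPKM in alpha cells, against 16, 18.3 and 19.9 RPKM in beta cells, without overlap. Pde4a had a log2 difference of 0.13 ± 0.14 SE.

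Of the phosphodiesterases that act on both cAMP and cGMP, Pde3b was the most abundant, at 29.8, 32.4 and 34.2 RPKM in alpha cells, against 31.6, 37.5 and 41.1 RPKM in beta cells, with a log2 difference of -0.21 ± 0.04 SE. Pde1a and Pde1b, activated by calcium and calmodulin, were 13-fold and 3.72-fold higher in alpha cells, and neither reached 2-fold on the scale of log2(RPKM + 1). Pde1a had 457 reads over all alpha libraries, against 10 over all beta libraries, 4 of which were at 0. Pde1c of the same class had 2.7, 4.25 and 5.92 RPKM in alpha cells, against 2.5, 3.5 and 4.78 RPKM in beta cells and did not reach 2-fold. Pde3a was 2.26-fold lower in alpha cells, at a mean of 0.356 ± 0.0839 RPKM in alpha cells, against 0.875 ± 0.256 in beta cells (SD, n = 12 each). The row called Pde2a was 4.62-fold higher in alpha cells, but the annotation gives its identifier to the gene Gm45837, which shares 150 exon bases with Arap1, so that its reads may not be those of Pde2a. Pde10a, best known from the striatum, ranged over 1.32, 3.02 and 8.73 RPKM in alpha cells, against 1.21, 4.06 and 16.5 RPKM in beta cells and is described with the rhythms.

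Pde5a, which is specific for cGMP and is the target of sildenafil, showed the widest difference towards beta cells. It lies on chromosome 3 (122728947 to 122859374) and had 1.28, 2.52 and 4.35 RPKM in alpha cells, against 41.2, 67.5 and 106 RPKM in beta cells. The level was 27.3-fold lower in alpha cells (log2 difference -4.77 ± 0.20 SE, adjusted p = 6.4e-15), and the libraries were far from overlapping. Pde5a made up 3.4% of the summed RPKM of phosphodiesterases in alpha cells and 45.5% in beta cells, while Pde3b made up 42.7% in alpha cells and 24.9% in beta cells. The sum left out Pde6d and Pde12, and counted both Pde4d entries and the row called Pde2a. Pde9a and Pde6c, the cone phosphodiesterase, were 3.67-fold and 7.69-fold higher in alpha cells at means of 0.603 ± 0.197 and 0.645 ± 0.276 RPKM in alpha cells, against 0.145 ± 0.143 and 0.0262 ± 0.037 RPKM in beta cells (SD, n = 12 each). Pde6d, which carries prenylated proteins and is no enzyme itself, lay at 4.94, 5.76 and 7.45 RPKM in alpha cells, against 6.52, 7.43 and 9.41 RPKM in beta cells and did not reach 2-fold. Pde12, which degrades oligoadenylates in mitochondria, lay at 2.24, 2.99 and 3.84 RPKM in alpha cells, against 2.32, 2.65 and 3.3 RPKM in beta cells, with an interval of the log2 difference from -0.06 to 0.24.

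**Figure D3:**
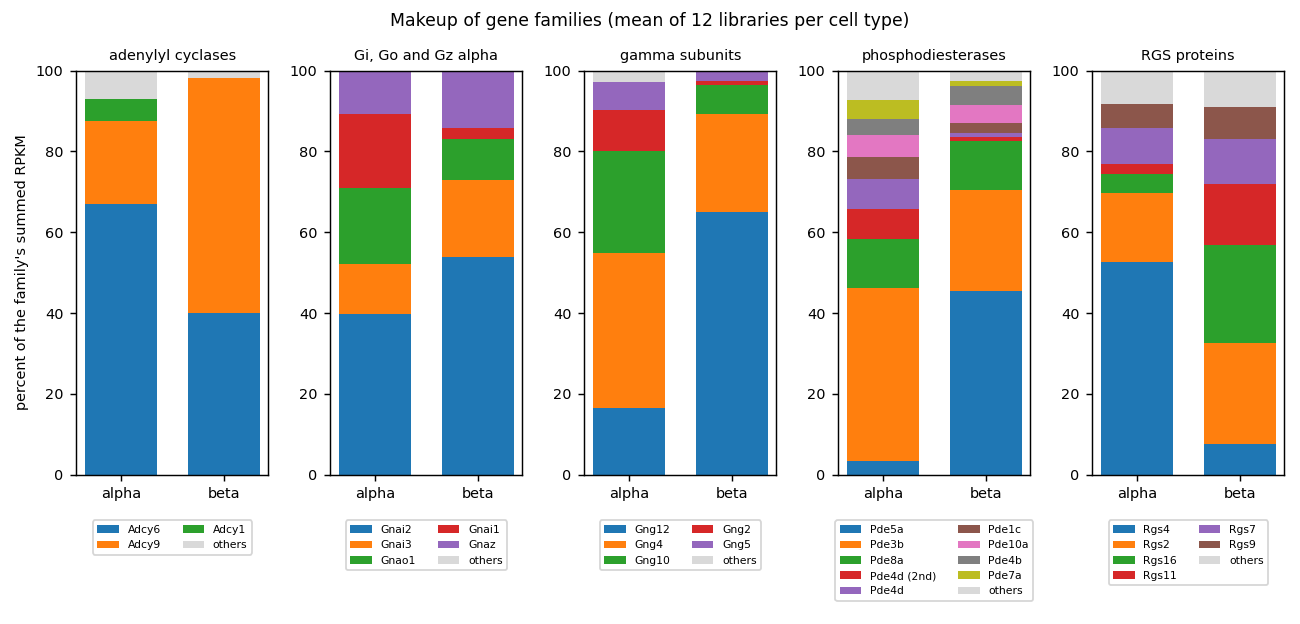
Share of each family's summed RPKM by gene (vertical axis, percent, mean of 12 libraries) in alpha cells (left bar) and beta cells (right bar) for adenylyl cyclases, alpha subunits of the Gi class, gamma subunits, phosphodiesterases and RGS proteins; genes under 4% in both cell types are pooled as others. Adcy6, Pde3b and Rgs4 lead in alpha cells, and Adcy9, Pde5a and Gng12 lead in beta cells. Pde6d and Pde12 are left out of the phosphodiesterases, and both Pde4d entries are counted.

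The subunits of PKA differed little, apart from Prkar2b. Prkacb, the most abundant catalytic subunit, ranged over 70.4, 100.0 and 129 RPKM in alpha cells, against 95.2, 144 and 191 RPKM in beta cells, 1.44-fold lower in alpha cells (log2 difference -0.52 ± 0.07 SE, adjusted p = 3.3e-07). Prkaca, the other catalytic subunit, ranged over 35.7, 42 and 47.6 RPKM in alpha cells, against 42.2, 50.3 and 56.9 RPKM in beta cells. The regulatory subunit Prkar2b, which belongs to the class held at anchoring proteins, was 4.17-fold lower in alpha cells (log2 difference -2.06 ± 0.06 SE, adjusted p = 6.4e-19), at 3.73, 4.64 and 5.93 RPKM in alpha cells, against 15.6, 19.5 and 26.3 RPKM in beta cells, without overlap. Prkar1a led the regulatory subunits in both cell types, with 81.3% of their summed RPKM in alpha cells and 68.2% in beta cells. It ranged over 122, 137 and 173 RPKM in alpha cells, against 104, 118 and 145 RPKM in beta cells. Prkar1b ranged over 20.5, 21.5 and 29.9 RPKM in alpha cells, against 24.5, 28.9 and 34.9 RPKM in beta cells, and Prkar2a had a log2 difference of -0.54 ± 0.06 SE.

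Among the exchange factors for Rap, those that cAMP activates behaved differently from each other. Rapgef3, which encodes Epac1, was 8.64-fold higher in alpha cells (log2 difference 3.11 ± 0.18 SE, adjusted p = 2.9e-13), at 1.04, 2.25 and 2.96 RPKM in alpha cells, against 0.044, 0.21 and 0.354 RPKM in beta cells, without overlap. Rapgef4, which encodes Epac2, was the more abundant in both, at 11.7, 14.2 and 16.9 RPKM in alpha cells, against 12.9, 15 and 16.3 RPKM in beta cells, and the interval of its log2 difference ran from -0.21 to 0.02. Rapgef3 was 12.5% of the summed RPKM of both genes in alpha cells and 1.38% in beta cells. Rapgef1, Rapgef2 and Rapgef6, which cAMP does not open in this way, did not reach 2-fold. Rapgef1 ranged over 8.53, 9.3 and 11.8 RPKM in alpha cells, against 6.68, 9.5 and 14.9 RPKM in beta cells. Rapgef2 ranged over 5.75, 6.15 and 7.18 RPKM in alpha cells, against 4.15, 5.31 and 7.01 RPKM in beta cells. Rapgef6 ranged over 4.05, 4.71 and 6.4 RPKM in alpha cells, against 3.7, 3.88 and 4.32 RPKM in beta cells. Rapgef5 was 3.76-fold lower in alpha cells (log2 difference -1.91 ± 0.21 SE, adjusted p = 2.3e-08), at a mean of 0.193 ± 0.105 RPKM in alpha cells, against 0.797 ± 0.165 in beta cells (SD, n = 12 each).

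The R4 class holds the small RGS proteins, and 4 of its 6 measured members were called. Rgs4 stood at 49.8, 69.3 and 118 RPKM in alpha cells, against 4.49, 6.37 and 9.23 RPKM in beta cells, 11-fold higher in alpha cells (log2 difference 3.46 ± 0.10 SE, adjusted p = 1.8e-18). It made up 52.7% of the summed RPKM of RGS genes in alpha cells and 7.56% in beta cells. Rgs16 stood at 5.41, 6.45 and 8.58 RPKM in alpha cells, against 11.2, 21.6 and 46.9 RPKM in beta cells, 3.4-fold lower in alpha cells (log2 difference -1.77 ± 0.17 SE, adjusted p = 6.9e-09), and neither gene overlapped between the cell types. Rgs2 ranged widely in beta cells, at 15.2, 21 and 32.6 RPKM in alpha cells, against 9.18, 19.5 and 77.2 RPKM in beta cells, and its log2 difference of 0.10 ± 0.23 SE did not pass the test. Rgs3 was 1.37-fold lower in alpha cells.

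Rgs8 and Rgs5 were called higher in alpha cells at low levels, 5.22-fold and 2.1-fold. Rgs8 had a mean of 0.766 ± 0.218 RPKM in alpha cells, against 0.148 ± 0.104 RPKM in beta cells, and Rgs5, a marker of pericytes, 0.74 ± 0.258 RPKM in alpha cells, against 0.337 ± 0.135 RPKM in beta cells (SD, n = 12 each). Rgs5 dropped below 2-fold without alpha ZT4 replicate 1 and without beta ZT16 replicate 2 (log2 differences of 0.99 and 0.99). Of 4 measured stromal markers 3 were called higher in alpha cells, with summed levels of 3.55 to 6.43 RPKM in alpha libraries and 0.244 to 0.549 RPKM in beta libraries, of which Col1a2 alone averaged 4.41 RPKM in alpha cells, against 0.0856 RPKM in beta cells, and their part in the Rgs5 difference was not tested. Pdgfrb, the pericyte marker among them, averaged 0.199 RPKM in alpha cells, against 0.0738 RPKM in beta cells.

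The R7 class binds Gnb5, and 1 of its 3 measured members was called. Rgs11 was 4.69-fold lower in alpha cells (log2 difference -2.23 ± 0.34 SE, adjusted p = 8e-06), at 0.533, 3.06 and 6.37 RPKM in alpha cells, against 3.87, 13.5 and 27.8 RPKM in beta cells, with overlap between the cell types. Rgs7 ranged over 10.7, 11.9 and 13.6 RPKM in alpha cells, against 7.93, 10.1 and 11.3 RPKM in beta cells, and Rgs9 over 4.73, 6.65 and 16.4 RPKM in alpha cells, against 4.07, 5.89 and 12.1 RPKM in beta cells, both under 2-fold. Their membrane anchor Rgs7bp ranged over 3.51, 4.46 and 5.34 RPKM in alpha cells, against 3.24, 4.34 and 5.98 RPKM in beta cells, with an interval of the log2 difference from -0.09 to 0.21. Rgs12, a large protein with several further domains, had 0.601, 0.897 and 1.35 RPKM in alpha cells, against 0.461, 0.733 and 1.31 RPKM in beta cells and an interval from -0.02 to 0.50.

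Of the RZ class, which favours Gz, Rgs17 was 2.07-fold higher in alpha cells, at 4.31, 5.4 and 6.07 RPKM in alpha cells, against 1.76, 2.51 and 3.26 RPKM in beta cells (log2 difference 1.05 ± 0.07 SE, adjusted p = 2.4e-12), and fell short of 2-fold on the scale of log2(RPKM + 1). Rgs20 was 3.67-fold higher in alpha cells from 164 reads over all alpha libraries, against 18 reads over all beta libraries, 4 of which were at 0. Rgs19 had 0.798, 1.28 and 1.95 RPKM in alpha cells, against 0.691, 0.962 and 1.79 RPKM in beta cells and did not reach 2-fold (log2 difference 0.36 ± 0.14 SE, adjusted p = 0.024).

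The other genes of the pathway were counted by list. Of 7 measured receptor kinases and arrestins, which silence receptors, Grk5 alone was called, 4.41-fold lower in alpha cells. Of 7 chaperones and activators of G proteins, Ccdc88c was 20.7-fold and Gpsm2 2.71-fold higher in alpha cells, and Gpsm1 was 2.51-fold lower. Of 12 anchoring proteins of PKA, Akap12 was 27.9-fold and Akap17b 5.78-fold higher in alpha cells, and Akap6 was 20.2-fold and Akap13 2.61-fold lower. Akap12 averaged 6.55 ± 0.731 RPKM in alpha cells, against 0.218 ± 0.0898 RPKM in beta cells, and Akap6 0.275 ± 0.0964 RPKM in alpha cells, against 5.69 ± 1.04 RPKM in beta cells (SD, n = 12 each). Among 3 PKA inhibitors Pkib was 2.29-fold lower in alpha cells. None of 3 phospholipase C beta genes was called, and of 7 Rap genes Rap1gap was 2.22-fold higher in alpha cells.

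Of 11 genes for CREB, the transcription factor that PKA phosphorylates, its relatives, coactivators and their kinases, Sik1 was called, 3.12-fold higher in alpha cells. Of 12 early genes that CREB can switch on 8 were called higher in alpha cells, beside 11.2% of all genes, and 0 lower, and the median log2 difference was 1.16 over the list and 0.01 over all genes. Nr4a3 was 4.99-fold, Nr4a2 4.15-fold and Sik1 3.12-fold higher in alpha cells. The list shares Fos, Fosb, Junb, Egr1 and Nr4a1 with the immediate early genes that differed between replicates. Without the 4 libraries with the most reads of the other cell type's hormone or of early genes (alpha ZT4 replicate 1, alpha ZT8 replicate 2, alpha ZT16 replicate 1 and beta ZT4 replicate 1, chosen after seeing the data), the count was 5 of 12 and the median 1.05, and Fos, Junb and Nr4a1 were no longer called. Without alpha ZT8 replicate 2 alone the count was 6, with Fos and Junb lost, and Fos was also lost without alpha ZT4 replicate 1, beta ZT4 replicate 2 or beta ZT8 replicate 1.

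Across the day, Pde10a carried the widest rhythm called in either cell type, and 4 further members, Pde1c, Rgs9, Prkacb and Adcy1, passed the test in both. A rhythm was a 24 h cosine fitted in each cell type, called at an adjusted p under 0.05, and its fold is the ratio of peak to trough. In alpha cells 7 of 78 members were rhythmic (8.97%), beside 9.66% of all genes, which is near the background. In beta cells 19 were rhythmic (24.4%), beside 16% of all genes. The 5 members rhythmic in both (6.41%) stand beside 4.15% of all genes, 2 passed in alpha cells alone and 14 in beta cells alone, and 57 passed in neither. Under every alternative setting 2 of the 7 alpha calls (Pde10a and Pde1c) held. So did 5 of the 19 beta calls (Pde10a, Gnat2, Gng12, Prkacb and Pde1c). The test of the difference of rhythm is given below.

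Pde10a averaged 4.75, 1.85, 1.51, 2.06, 8.15 and 6.87 RPKM in alpha cells at ZT0, ZT4, ZT8, ZT12, ZT16 and ZT20 (n = 2 each), against 7.04, 1.67, 2.51, 3.93, 15.3 and 7.87 RPKM in beta cells. Its cosine spanned 6-fold, a peak at ZT19.2 ± 0.5 h SE, adjusted p = 0.00077 in alpha cells and 7.07-fold, a peak at ZT17.9 ± 0.5 h SE, adjusted p = 0.00016 in beta cells. Both libraries of ZT16 lay above all libraries of ZT4, ZT8 and ZT12 in each cell type. Rgs9 averaged 8.98, 6.34, 4.9, 5, 11.4 and 12.7 RPKM at these times in alpha cells, against 8.57, 5.04, 4.99, 5.71, 11.4 and 9.02 RPKM in beta cells. Its rhythm was 2.67-fold, a peak at ZT19.9 ± 0.7 h SE, adjusted p = 0.0066 in alpha cells and 2.29-fold, a peak at ZT18.7 ± 0.8 h SE, adjusted p = 0.014 in beta cells. The replicates of Rgs9 were apart at ZT0, with 6.2 and 11.8 RPKM in alpha cells, against 5.43 and 11.7 RPKM in beta cells.

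Pde1c was high in the same part of the day, with means of 4.58, 4.22, 2.89, 2.8, 5.59 and 5.55 RPKM in alpha cells, against 3.93, 3.11, 2.52, 3.05, 4.76 and 3.96 RPKM in beta cells. The fit gave 2.01-fold, a peak at ZT20.6 ± 0.6 h SE, adjusted p = 0.0022 in alpha cells and 1.71-fold, a peak at ZT19.3 ± 0.8 h SE, adjusted p = 0.0099 in beta cells. Prkacb and Adcy1 had their highest mean at ZT8 or ZT12 instead. Prkacb, the PKA catalytic subunit, averaged 85.8, 109, 125, 104, 71.8 and 85.1 RPKM in alpha cells, against 119, 168, 176, 161, 97.6 and 120.0 RPKM in beta cells, with 1.61-fold, a peak at ZT7.1 ± 0.9 h SE, adjusted p = 0.03 in alpha cells and 1.75-fold, a peak at ZT7.1 ± 0.8 h SE, adjusted p = 0.0085 in beta cells. The alpha call of Prkacb was lost without alpha ZT4 replicate 2 or any 1 of the ZT8 and ZT16 alpha libraries (highest adjusted p = 0.11), while its beta call held without every single library. Adcy1 averaged 2.29, 3.53, 6.17, 7.19, 2.95 and 2.31 RPKM in alpha cells, with 3.35-fold, a peak at ZT9.8 ± 0.8 h SE, adjusted p = 0.018, and this call was lost without alpha ZT8 replicate 1 or alpha ZT12 replicate 2 (highest adjusted p = 0.071). In beta cells its rhythm had 2.5-fold, a peak at ZT9.6 ± 1.1 h SE, adjusted p = 0.049, from 64 reads over all 12 libraries, and this call was lost when any 1 of 18 libraries was left out (highest adjusted p = 0.16).

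The 2 further alpha rhythms were Gng4 and Rgs11. Gng4 averaged 31.3, 27.5, 24.5, 23.2, 30.2 and 32.7 RPKM (1.4-fold, a peak at ZT21.3 ± 1.0 h SE, adjusted p = 0.036), and the call was lost without any 1 of 8 libraries (highest adjusted p = 0.095). Rgs11 averaged 3.48, 1.85, 1.12, 2.94, 6.29 and 4.62 RPKM (5.81-fold, a peak at ZT17.9 ± 1.0 h SE, adjusted p = 0.044), and was lost without any 1 of 14 libraries (highest adjusted p = 0.15). Its replicates were 1.34 and 5.61 RPKM at ZT0, 3.18 and 0.533 RPKM at ZT4, and 0.572 and 1.67 RPKM at ZT8, a spread as wide as the rhythm.

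**Figure D4:**
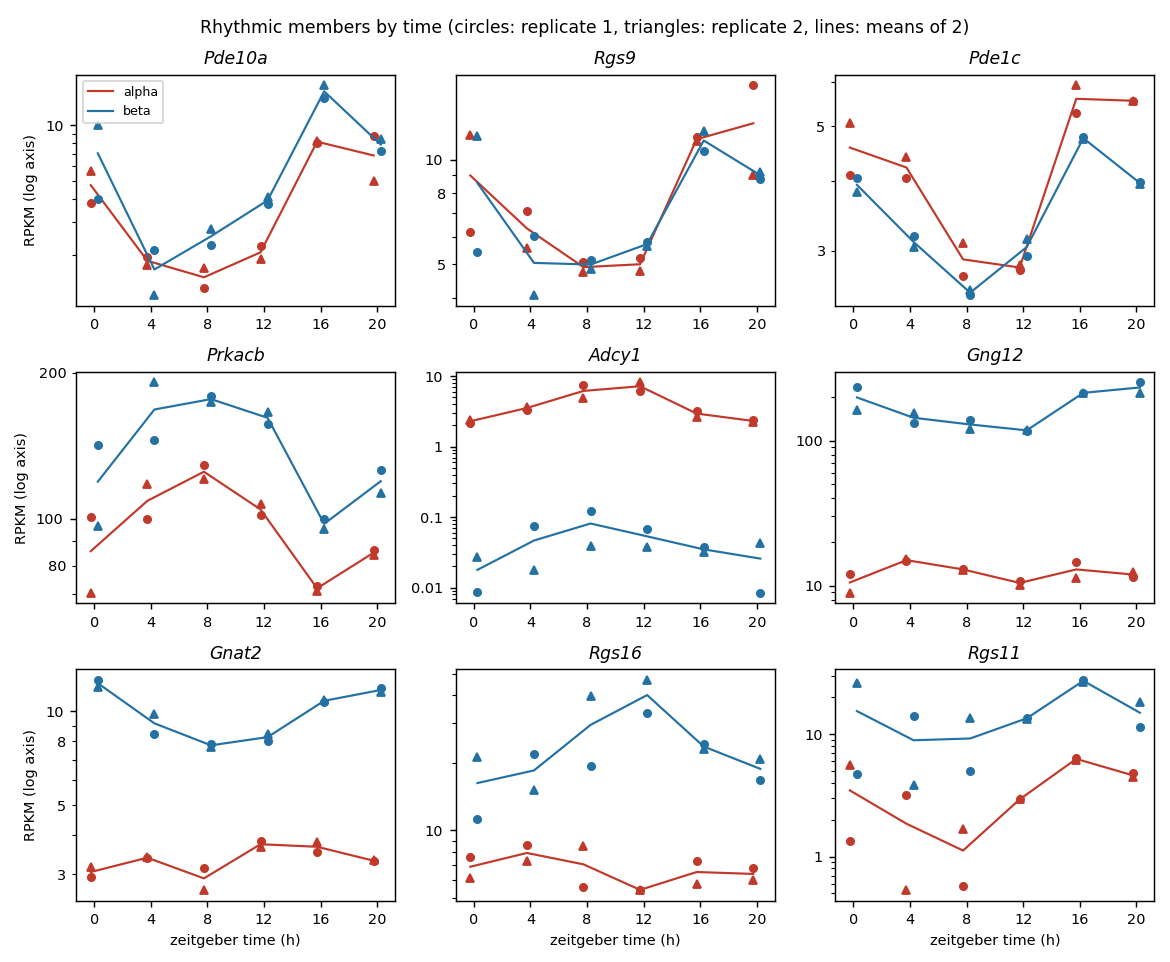
RPKM on a log axis against zeitgeber time (hours) for 9 members called rhythmic in at least 1 cell type, with each replicate as a point and the mean of 2 as a line, alpha cells in red and beta cells in blue. Pde10a, Rgs9 and Pde1c are high at ZT16 and ZT20 in both cell types, and the replicates of Rgs11 stand far apart at ZT0, ZT4 and ZT8.

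In beta cells the G protein subunits Gnat2 and Gng12 had the lowest adjusted p after Pde10a. Gnat2 averaged 12.3, 9.15, 7.78, 8.26, 10.8 and 11.7 RPKM over the 6 times (1.61-fold, a peak at ZT21.1 ± 0.6 h SE, adjusted p = 0.00067), against 3.05, 3.39, 2.91, 3.74, 3.68 and 3.32 RPKM in alpha cells. Gng12, the leading gamma subunit, averaged 198, 144, 129, 117, 213 and 232 RPKM (2-fold, a peak at ZT20.4 ± 0.7 h SE, adjusted p = 0.0024), against 10.5, 15, 13, 10.4, 12.9 and 11.9 RPKM in alpha cells. Their beta replicates stayed closer than the range of the day, with 235 and 161 RPKM of Gng12 at ZT0 the widest pair.

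Rgs16 and Rgs2 of the R4 class peaked near ZT12 in beta cells. Rgs16 averaged 16.2, 18.5, 29.6, 40.2, 23.7 and 18.8 RPKM in beta cells (2.33-fold, a peak at ZT11.7 ± 0.8 h SE, adjusted p = 0.0067), against 6.87, 7.92, 7.05, 5.42, 6.51 and 6.39 RPKM in alpha cells. Rgs2 averaged 9.59, 17.9, 27.1, 70.8, 18.4 and 20.3 RPKM in beta cells (4.29-fold, a peak at ZT11.7 ± 0.8 h SE, adjusted p = 0.014), against 17.9, 22.4, 20.8, 32.1, 24.1 and 22.4 RPKM in alpha cells. Both ZT12 libraries of Rgs2, at 64.5 and 77.2 RPKM, exceeded every other beta library. Without beta ZT12 replicate 2 the adjusted p of Rgs2 was 0.054.

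The beta rhythms of Gnai1, Gng10, Adcy3, Rgs7bp, Gna14 and Pde5a lay earlier. Gnai1 averaged 6.28, 8.99, 9.26, 6.46, 4.84 and 5.49 RPKM (1.9-fold, a peak at ZT6.2 ± 0.9 h SE, adjusted p = 0.014). Gng10 averaged 16.5, 20.3, 24, 19.3, 11.6 and 13 RPKM (1.98-fold, a peak at ZT6.9 ± 0.8 h SE, adjusted p = 0.011). Adcy3 averaged 0.514, 0.719, 1, 0.66, 0.396 and 0.562 RPKM (1.93-fold, a peak at ZT6.9 ± 0.9 h SE, adjusted p = 0.018), with an adjusted p of 0.073 without beta ZT8 replicate 1. These were higher at ZT4 and ZT8 than at ZT16. Rgs7bp had 1.52-fold, a peak at ZT6.0 ± 1.0 h SE, adjusted p = 0.032, and Gna14 had 2.42-fold, a peak at ZT7.9 ± 1.1 h SE, adjusted p = 0.042, the second from 125 reads over all beta libraries. Rgs7bp lost its call without any 1 of 5 beta libraries, both of ZT4, both of ZT16 and ZT20 replicate 2 (highest adjusted p = 0.1), and Gna14 without any 1 of 9 libraries (highest adjusted p = 0.12). Pde5a averaged 52.8, 81.7, 100.0, 95.2, 42 and 52.1 RPKM in beta cells (2.36-fold, a peak at ZT7.8 ± 1.0 h SE, adjusted p = 0.04), and its call was lost without any 1 of 8 libraries (highest adjusted p = 0.085).

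Rgs3, Rapgef2, Gnao1 and Rapgef1 had their highest mean at ZT16 in beta cells. Rgs3 averaged 3.46, 2.76, 1.88, 2.09, 4.54 and 3.44 RPKM (2.06-fold, a peak at ZT19.7 ± 0.9 h SE, adjusted p = 0.016). Rapgef2 had 1.35-fold, a peak at ZT19.0 ± 1.0 h SE, adjusted p = 0.03, and lost its call without any 1 of 5 beta libraries, both of ZT16 and replicate 2 of ZT4, ZT8 and ZT20 (highest adjusted p = 0.1). Gnao1 had 1.68-fold, a peak at ZT18.4 ± 1.0 h SE, adjusted p = 0.039, against 1.55-fold, a peak at ZT19.7 ± 1.2 h SE, adjusted p = 0.094 in alpha cells, and its beta call was lost without any 1 of 7 libraries (highest adjusted p = 0.11). Rapgef1 had 1.59-fold, a peak at ZT18.7 ± 1.1 h SE, adjusted p = 0.048 and lost its call without any 1 of 20 libraries (highest adjusted p = 0.14).

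Peaks were counted in 2 windows that were not part of the plan and that enclose the peak of every rhythmic member. In alpha cells 2 of 7 rhythmic members peaked from ZT5 to ZT13, between ZT7.1 and ZT9.8, and 5 from ZT17 to ZT22, between ZT17.9 and ZT21.3. Among all rhythmic genes of alpha cells 52.1% peaked in the first window and 35.1% in the second. In beta cells 10 of 19 rhythmic members peaked in the first window, between ZT6.0 and ZT11.7, and 9 in the second, between ZT17.9 and ZT21.1, beside 39.8% and 40.4% of all rhythmic genes. Because the windows enclose every member peak, and the count of members is small, the members cannot be set against these shares.

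No member had a difference of rhythm that passed the adjusted p, beside 0.0713% of all genes, so a rhythm called in 1 cell type is not shown to be absent from the other. At an unadjusted p under 0.05 in limma there were 6 members (7.69%), beside 7.66% of all genes, a share at the background. In limma these had an adjusted p of 0.11 (Gnat2), 0.15 (Gng12), 0.18 (Rgs16), 0.4 (Rapgef4), 0.44 (Pde5a) and 0.52 (Gnb4). Without alpha ZT8 replicate 2 the difference of Gnat2 passed (adjusted p = 0.025). On the scale of log2(RPKM + 1) those of Gnat2 (adjusted p = 0.038) and Adcy1 (adjusted p = 0.0046) passed. Adcy1 had at most 0.123 RPKM in any beta library, so an offset of 1 flattens whatever rhythm it has there. Its pass on this scale therefore cannot show that the rhythms differ, and it was not among the 6 members above.

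The replicates of 1 time differed in the immediate early genes, and 4 of 78 members (5.13%) followed that difference. Among all genes the share was 8.68%, and 4 members are too few to be read as a lower share. The early genes summed to 995 and 1448 RPKM at ZT0, 1301 and 467 RPKM at ZT4 and 345 and 2499 RPKM at ZT8 in replicates 1 and 2 of alpha cells, against 395 and 699, 565 and 275, and 174 and 962 RPKM in beta cells. Rgs11 was higher in the replicate with more early RNA in 8 of 12 groups, Rgs16 in 7, Rgs2 in 9 and Pde4c in 9. The likeness was measured as the cosine similarity, over the 12 groups, of each gene's log2 difference between replicates with that of the early genes. It was 0.78 for Rgs11, 0.76 for Rgs16, 0.64 for Rgs2 and 0.64 for Pde4c. These are the members above 0.6.

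In the other direction 8 members (10.3%) lay below -0.6, beside 6.82% of all genes. They were Gnai2 (-0.79), Gng2 (-0.77), Gng11 (-0.73), Gna13 (-0.72), Gng10 (-0.70), Prkar1b (-0.66), Gnat2 (-0.63) and Pde3b (-0.62). The median was -0.19 over the members and -0.06 over all genes. The genes of a library share its depth, and the 12 pairs are not separate, since replicate differences of alpha and beta cells over 11831 genes had correlations of 0.704 at ZT0, 0.52 at ZT4 and 0.448 at ZT8. With the early gene level as a covariate, a setting added after seeing the data, the count of rhythmic members was 7 in alpha cells, against 18 in beta cells. The beta calls of Adcy1 and Rapgef1 did not pass under it, so the members counted were not all the same. The share of all genes that was rhythmic under this setting was not counted.

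**Figure D5:**
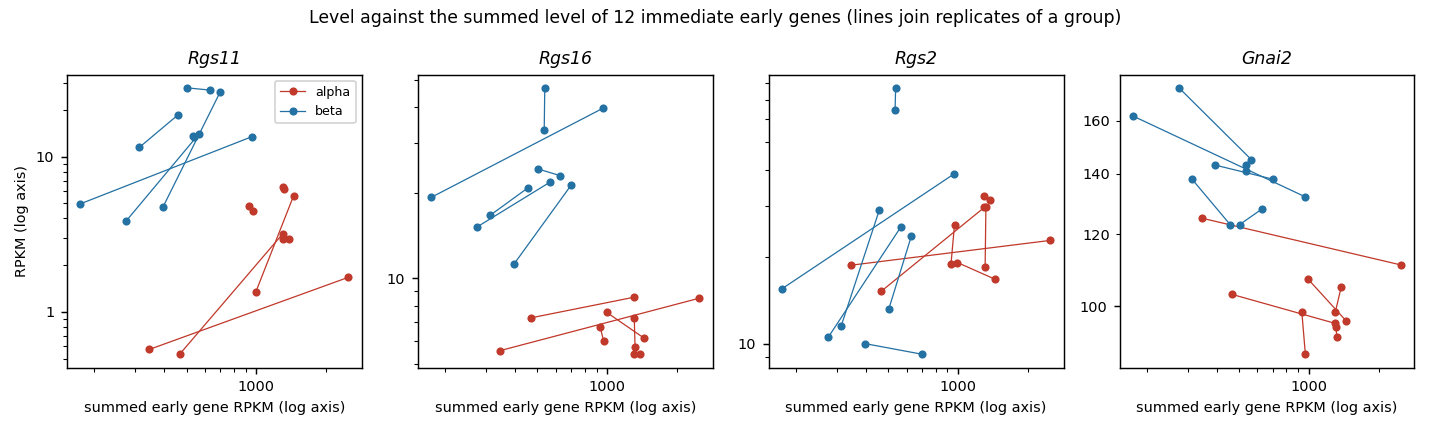
RPKM of Rgs11, Rgs16, Rgs2 and Gnai2 (vertical log axis) against the summed RPKM of 12 immediate early genes (horizontal log axis) in each library, with a line joining the 2 replicates of a group, alpha cells in red and beta cells in blue. Rgs11 is higher in the replicate with more early RNA in 8 of 12 groups and Gnai2 in 2 of 12.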

How the data were processed

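Total RNA of islet alpha and beta cells was made into stranded libraries after removal of ribosomal RNA, per the labels' protocols. STAR, edgeR and the build mm10 are named without versions, per the submitters' processing notes. No source used here gives the gene annotation or the strand setting. The authors deposited log2 values, which their steps show to be log2 RPKM with a prior count (mean over libraries 2.0). Whole reads were recovered for all 14027 genes (largest deviation 8.1e-08), and RPKM means were computed from them. With the prior count, fitted differences of genes with few reads are too small.

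The plan was limma on log2 values, or edgeR if the authors gave raw counts. The deposited log2 values were tested as they stand with limma 3.58.1 in R 4.3.3 (trend, robust), with Benjamini-Hochberg adjustment over all genes. Cell types were compared with time as a factor of 6 levels, and a cosine with a period of 24 h was fitted to each cell type, with all 24 libraries in the model. The labels do not say whether the 2 replicates of a group are separate animals, so p-values measure only the spread among libraries, part of which may be technical. SDs over 12 libraries include the time of day. No sample was left out. Scaling, offset, filter, variance model, left-out libraries and model terms were varied.

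Every member called between cell types or rhythmic is named, with the 3 highest of each role. The members and lists were chosen with earlier results of these data known. Positions come from GENCODE for GRCm38, which mm10 names. The scripts were tested on simulated data.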

Additional observations from a re-analysis of the deposited data

How the results depend on the processing

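The count of members called between cell types stayed at 34 to 38 of 78 under log2(RPKM + 0.1), voom weights on recovered reads, median centring, total reads scaling, a plain variance model and a fit with no time term. It was 20 under log2(RPKM + 1), with 12 higher in alpha cells, and 17 of 53 among genes with a mean log2 value above 0, with 9 higher in alpha cells; all of these were among the 37. Among cyclases, gamma subunits and RGS genes, log2(RPKM + 1) lost Adcy2, Adcy8, Gng11, Rgs5, Rgs8, Rgs17 and Rgs20. Among phosphodiesterases and Rap exchange factors it lost Pde1a, Pde1b, the row called Pde2a, Pde3a, Pde4c, Pde6c, Pde7b, Pde8b, Pde9a and Rapgef5. Adcy8, Rgs5 and Rgs20 were also lost under log2(RPKM + 0.1). Without the fold threshold 66 passed, 37 higher in alpha cells and 29 higher in beta cells. Of the 37 calls 19 held in every alternative that tested them, and no called direction reversed. Among these 19, Adcy1, Adcy5, Gnb4 and Rapgef3 were left out by the filter on mean log2, so they were tested in 33 alternatives, against 34. Total reads scaling moved the median log2 difference of all genes to 0.191, against 0.013. Leaving out 1 library gave 36 to 39 calls, 24 to 26 higher in alpha cells and 12 to 13 higher in beta cells.

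Rhythms depended more on single libraries. Leaving out 1 library gave 3 to 14 rhythmic members in alpha cells, against 7, and 12 to 20 in beta cells, against 19. The alpha count was 14 without alpha ZT4 replicate 1, 3 without alpha ZT8 replicate 1, and 4 without alpha ZT8 replicate 2, alpha ZT12 replicate 2 or either alpha ZT16 library. The beta count was 12 without either beta ZT16 library. Of the rhythm calls 3 of 7 in alpha cells (Pde10a, Pde1c, Rgs9) and 10 of 19 in beta cells held without every single library. Under every alternative 2 of 7 held in alpha cells and 5 of 19 in beta cells. With 6 times as a factor Rgs9 did not pass in either cell type, and Rgs16, Gng10 and Gnai1 did not pass in beta cells. Gnai1 and Rgs3 did not pass with beta cells fitted alone. With 6 times as a factor in place of the cosine 4 members were rhythmic in alpha cells, against 9 in beta cells. Beta cells fitted alone gave 10. With ZT0 left out, an alternative chosen after seeing the data, 13 members were rhythmic in alpha cells. The adjusted p depends on all genes, and the share of all genes that was rhythmic under each alternative was not counted. These shifts therefore cannot be read as particular to the members, and their cause was not tested.

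The difference of rhythm, 0 members in the main result, gave 2 under log2(RPKM + 1) and 0 to 1 when 1 library was left out. Of these 2, Adcy1 lay so low in beta cells that the offset flattens its rhythm there. The difference of rhythm gave 1 member, Gnat2, without 4 libraries with the most reads of the other cell type's hormone or of early genes, chosen after seeing the data. The replicate differences of alpha and beta cells had correlations of 0.704, 0.52, 0.448, 0.153, 0.151 and 0.025 at ZT0 to ZT20 (11831 genes), above 0 at all 6 times and above 0.1 at 5. The numbers were not taken to pair samples, since the labels do not say so and ZT20 lay below 0.1. With a block for each time and replicate number 37 members were called between cell types. From alpha minus beta differences within these blocks 0 differed in rhythm. The rhythms of each cell type were fitted with a term for replicate number over all times, which does not pair alpha and beta libraries. With this term 7 members in alpha cells and 14 in beta cells were rhythmic. Under it Rgs11 in alpha cells and Adcy1, Gna14, Gnao1, Pde5a and Rapgef1 in beta cells did not pass, and Gnb4 in alpha cells did. The beta rhythm of Adcy1 rests on 64 reads, and the part of depth was not tested.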
